A study of Mus musculus with 16 samples.

Results

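Rpph1, Rmrp, Terc, Rny1, Rny3, Rn7sk and Vaultrc5 are short RNAs that are not translated and that work as the RNA part of a ribonucleoprotein. They were followed through 8 stages of mouse preimplantation development, from the MII oocyte to the blastocyst, in material from superovulated females and from natural cycles. The members were the array rows whose gene symbol is, or includes, one of these 7 names, which gave 10 rows of the 72688 on the array (30638 rows, those with exactly 1 symbol, entered the tests). Rny1, Rny3 and Rn7sk each had a chromosomal row and a further row without a chromosome. Every value below is from the chromosomal row unless stated otherwise. The names were chosen by the difference between the backgrounds and by the stage course on these same arrays, so both are given for the members as a description, with no test.

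All oocytes came from B6C3F1 females, and embryos were sired by CD1 males. The superovulated donors had received PMSG (10 IU) and then hCG (10 IU) with 48 h between the injections, and the natural-cycle donors had received neither hormone. The 8 stages were unfertilized oocytes at metaphase II (MII), zygotes (1-cell), 2-cell embryos taken early and late, embryos with 4 and with 8 cells, morulae and blastocysts. Each had 1 array on each of the 2 backgrounds, 16 in all, loaded with the RNA of 20 oocytes or embryos taken from a pool. Zygotes grew in KSOM(aa) medium inside their zona pellucida, so the stages after the 1-cell stage developed in vitro on both backgrounds. Superovulated MII oocytes came from unmated females and natural-cycle MII oocytes from females mated with vasectomized males, and mating and stimulation cannot be told apart at that stage. Superovulated donors were 6 to 8 weeks old, and the age of the natural-cycle donors is not stated.

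RNase P, with Rpph1 as its catalytic RNA, removes the leader from precursor transfer RNAs, and RNase MRP, with Rmrp, shares most of its proteins and acts in ribosomal RNA maturation. Terc is the template RNA of telomerase, Rny1 and Rny3 are Y RNAs bound by the Ro60 and La proteins, Rn7sk holds the elongation factor P-TEFb in an inactive complex, and Vaultrc5 is a vault RNA. In mammals Rpph1, Rmrp, the Y RNAs, Rn7sk and the vault RNAs are made by RNA polymerase III, and Terc by RNA polymerase II. The genome of the mouse embryo is switched on in earnest at the 2-cell stage, after maternal transcripts have begun to be degraded.

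Rpph1 lies next to Parp2, which encodes a poly(ADP-ribose) polymerase, and Rmrp lies next to Ccdc107. The promoter table used here (RefSeq, GRCm38.p6, 250 bases before and 50 after each start, 32851 promoters) matched 0 of the 7 members. The windows of these neighbours are printed because they hold sequence near the members. The Parp2 window runs on from Rpph1 without a gap, but the Ccdc107 window lacks the bases right beside Rmrp. Capitals mark the octamer and the TATA letters defined after the sequences, as read on the plus strand. The end of a member here means its higher coordinate on the chromosome, whatever the strand of its gene. It is not the 3' end of the RNA as such, and it can be the side where the RNA starts.
Parp2, chr14:50807666-50807965, plus strand, the first 106 bases inside Rpph1: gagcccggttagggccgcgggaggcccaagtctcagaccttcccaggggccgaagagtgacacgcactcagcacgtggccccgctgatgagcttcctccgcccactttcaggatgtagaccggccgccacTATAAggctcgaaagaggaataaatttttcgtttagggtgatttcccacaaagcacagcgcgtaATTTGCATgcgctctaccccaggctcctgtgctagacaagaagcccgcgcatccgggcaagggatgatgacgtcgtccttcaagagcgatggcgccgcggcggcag
Ccdc107, chr4:43493115-43493414, plus strand, starting 56 bases past the end of Rmrp: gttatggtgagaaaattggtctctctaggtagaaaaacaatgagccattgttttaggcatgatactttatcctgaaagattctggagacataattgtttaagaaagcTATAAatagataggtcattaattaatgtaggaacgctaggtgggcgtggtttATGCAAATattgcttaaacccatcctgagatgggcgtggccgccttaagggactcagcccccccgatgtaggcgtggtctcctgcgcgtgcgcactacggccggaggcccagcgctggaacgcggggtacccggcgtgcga

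The motifs searched were the octamer ATTTGCAT, or ATGCAAAT on the other strand, and the TATA letters TATAA, or TTATA on the other strand. The 2 motifs share no letters in these windows. In the Parp2 window the TATA letters started 25 bases and the octamer 89 bases past the higher-coordinate end of Rpph1. In the Ccdc107 window the TATA letters started 163 bases and the octamer 215 bases past the higher-coordinate end of Rmrp (bases 108 and 160 of the window). The octamer was present in 1.74% of all promoters of this length and the TATA letters in 24.9%. These matches are a description of the letters and were not tested as binding sites.

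Rpph1 gave a log2 signal of 12.13 in superovulated and 10.52 in natural-cycle MII oocytes. It was 12.19 and 9.70 at the 1-cell stage, 12.13 and 10.71 at the early 2-cell stage, and 11.50 and 10.91 at the late 2-cell stage (superovulated first throughout). From cleavage to cavitation it was 13.15 and 10.64 at the 4-cell stage, 13.85 and 11.18 at the 8-cell stage, 13.68 and 11.50 in morulae, and 14.56 and 14.05 in blastocysts. The superovulated array was the higher of its pair at 8 of 8 stages, and the pair lay close together only at the late 2-cell and blastocyst stages. The mean of the 8 differences was 1.75 ± 0.86 (SD, n = 8 stages), a 3.36-fold higher signal, and 6 stages differed at least 2-fold. In RNA from pooled whole embryos, a change in how many cells hold an RNA and a change in its amount per cell cannot be told apart. By this mean Rpph1 stood second from the top among the tested rows. Among all tested rows 2.83% were higher in the superovulated array at all 8 stages, 0.45% had a mean difference of at least 2-fold upward and 0.108% downward, 51.5% had stage means at least 2-fold apart and 18.4% were highest in the blastocyst, and nothing is read from these shares because they chose the gene.

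The difference of Rpph1 was largest at the 8-cell (6.35-fold), 4-cell (5.68-fold) and 1-cell (5.62-fold) stages and smallest at the late 2-cell (1.5-fold) and blastocyst (1.43-fold) stages. Without both arrays of these last stages its mean difference was 2.15, a subset chosen after the values were seen. In natural-cycle embryos the signal stayed between 9.70 and 11.50 until the morula and then rose by 2.55 into the blastocyst. In superovulated embryos the rise was spread out, with 1.65 from late 2-cell to 4-cell and 0.88 from morula to blastocyst. Ordered by stage mean, only the gaps between 4-cell and 8-cell (0.62) and between morula and blastocyst (1.71) were larger than the spread within a stage (0.61, the SD of the 8 differences divided by the square root of 2).

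**Figure D1:**
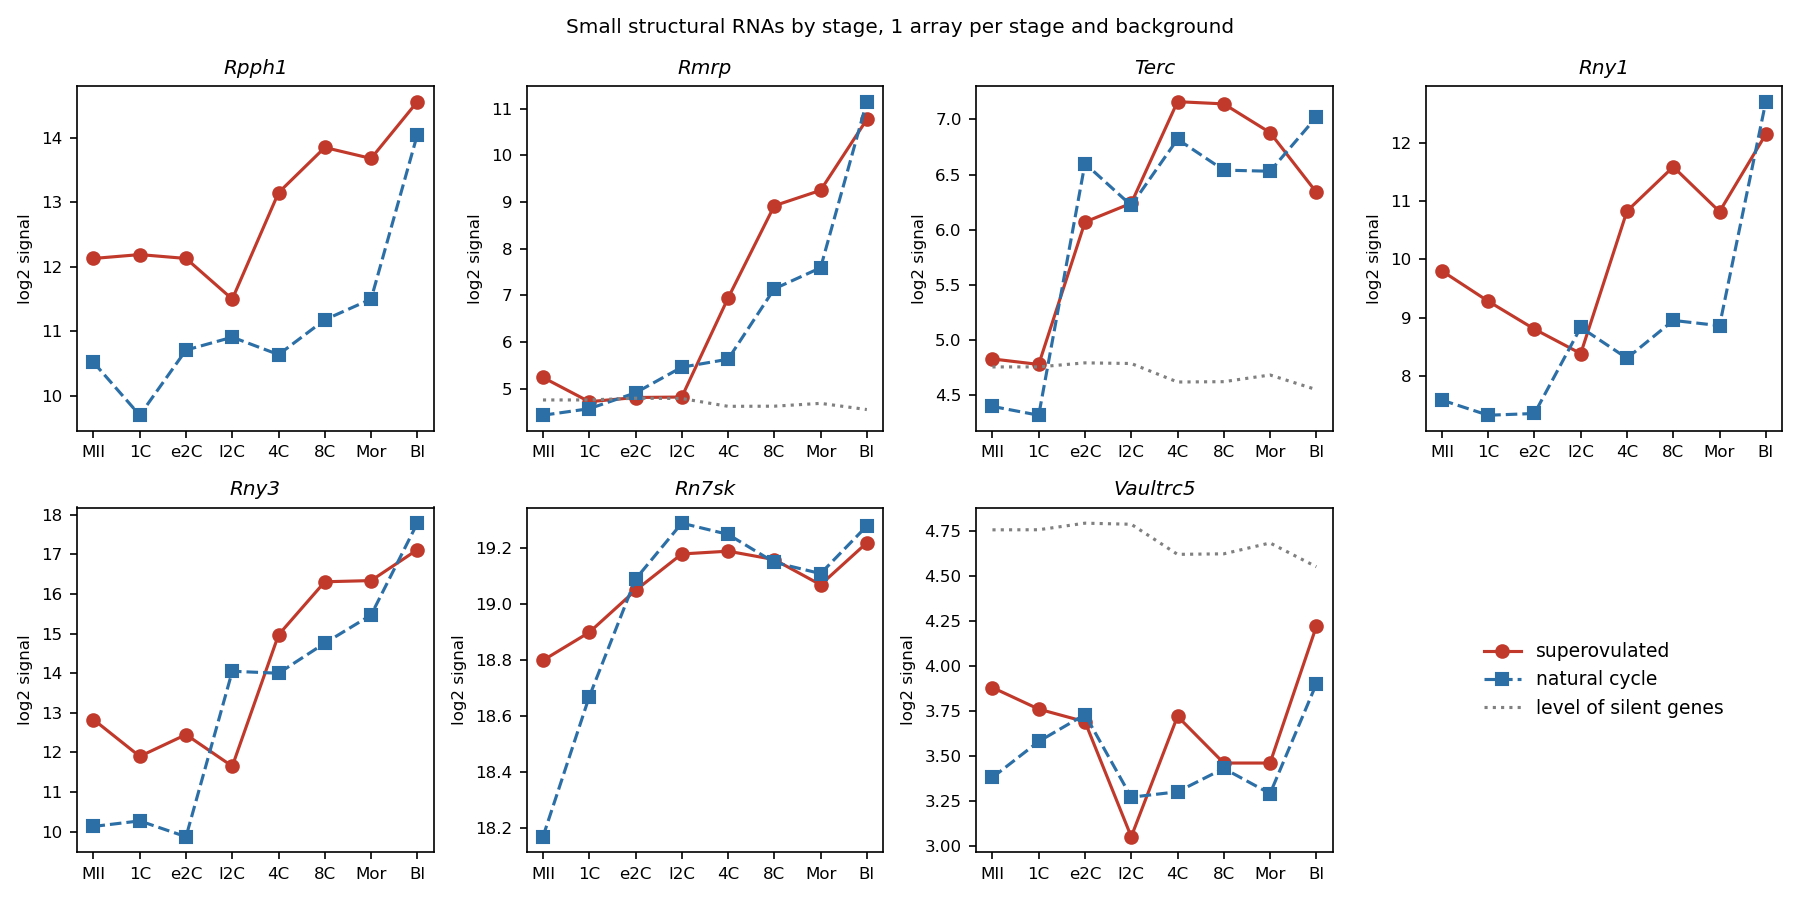
Log2 signal (y axis) of the 7 RNAs by stage (x axis, from MII oocyte to blastocyst), with 1 array for each point, so no error bars can be drawn. Circles are superovulated and squares natural-cycle arrays, and the dotted line is the level of silent genes averaged over the pair of arrays; the Rpph1 circles lie above the squares at 8 of 8 stages, from 9.70 to 14.56 log2 over both.

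Rmrp, the RNA of the sister enzyme, was near the level of silent genes until the 2-cell stages and came up during cleavage. That level is the signal below which 90% of 1548 rows for olfactory, vomeronasal and trace amine receptors lay on an array (4.47 to 4.89 log2). Rmrp was above it on 12 of 16 arrays, 6 on each background. The superovulated arrays read 5.24, 4.72, 4.81 and 4.82 from MII oocyte to late 2-cell, and the natural-cycle arrays 4.43, 4.57, 4.91 and 5.46. At the 4-cell, 8-cell and morula stages the superovulated signal was 6.94, 8.92 and 9.25 against 5.63, 7.14 and 7.59. In blastocysts the order turned, with 10.77 against 11.15. The mean difference was 0.57 ± 0.94 (SD, n = 8 stages), smaller than its spread, with 5 of 8 stages higher in the superovulated array. Between MII oocyte and blastocyst Rmrp rose by 5.53 log2 in superovulated and by 6.72 in natural-cycle material. The steps from late 2-cell to 4-cell, from 4-cell to 8-cell and from morula to blastocyst (stage means 1.15, 1.75 and 2.54) were larger than its within-stage spread of 0.67.

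Terc rose at the early 2-cell stage. It read 4.83 and 4.78 in superovulated MII oocytes and zygotes and 4.40 and 4.32 in natural-cycle ones, the last pair below the level of silent genes. At the early 2-cell stage it stood at 6.07 and 6.60, a rise over the 1-cell stage of 1.30 in superovulated and 2.28 in natural-cycle embryos. From late 2-cell to blastocyst the superovulated arrays read 6.24, 7.16, 7.14, 6.88 and 6.34 and the natural-cycle arrays 6.22, 6.82, 6.54, 6.53 and 7.02. Neither background was higher throughout, and the mean difference over all 8 was 0.12 ± 0.48 (SD). In the stage order MII oocyte and 1-cell lay below the rest, separated by 1.61 against a within-stage spread of 0.34, and a second gap, between early 2-cell and blastocyst (0.34), was at that spread.

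Rny1 followed Rpph1 in its shape. In superovulated material it read 9.80, 9.28, 8.80 and 8.38 from MII oocyte to late 2-cell and 10.83, 11.59, 10.82 and 12.15 from 4-cell to blastocyst. The natural-cycle arrays read 7.58, 7.32, 7.35 and 8.83 and then 8.30, 8.95, 8.86 and 12.71. The superovulated array was at least 2-fold higher at 6 of 8 stages and lower at the late 2-cell (-0.45) and blastocyst (-0.56) stages. The mean difference was 1.47 ± 1.27 (SD, n = 8 stages), a 2.77-fold higher signal, and the second Rny1 row gave 1.52 ± 1.25. The level fell slowly from MII to late 2-cell in superovulated material, and in natural-cycle embryos most of the rise fell between morula and blastocyst (3.85).

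Rny3 showed the widest gaps, in both directions. It read 12.83, 11.90 and 12.45 in superovulated and 10.13, 10.27 and 9.87 in natural-cycle material at the MII, 1-cell and early 2-cell stages. At the late 2-cell stage the order turned, with 11.65 in superovulated and 14.05 in natural-cycle embryos. It then read 14.97, 16.31, 16.34 and 17.12 against 14.00, 14.76, 15.47 and 17.79. The natural-cycle signal had therefore risen by 4.18 between early and late 2-cell, while the superovulated signal fell by 0.81 over that step and rose by 3.32 over the next, from late 2-cell to 4-cell. The late 2-cell difference of -2.40 was 5.28-fold in favour of the natural cycle, and the MII difference of 2.71 was 6.52-fold the other way. The mean difference, 0.91 ± 1.71 (SD), was smaller than its spread, and it was 1.38 without the late 2-cell pair. Both Rny3 rows held identical values and count as 1 measurement.

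The backgrounds also differed in stage markers at some stages. The mean log2 signal of 5 genes switched on at the 2-cell stage (Zscan4c, Zscan4d, Zfp352, Tcstv1 and Usp17la) was 10.28 in superovulated and 9.10 in natural-cycle late 2-cell embryos, against 13.09 and 12.82 at the early 2-cell stage, 8.51 and 7.65 at the 4-cell stage, and 6.78 and 5.62 in morulae. The 5 oocyte markers stood at 12.50 and 12.39 on the late 2-cell pair. In morulae the mean of 6 blastocyst markers (Cdx2, Nanog, Sox2, Gata6, Sox17 and Krt8) was 8.22 in superovulated and 9.60 in natural-cycle embryos, the opposite order to Rpph1 there. The part of these marker differences in the members' values was not tested.

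Rn7sk was at a near constant signal. It read 18.80 and 18.17 in MII oocytes, 18.90 and 18.67 at the 1-cell stage, and between 19.05 and 19.29 on the other 12 arrays. The mean difference was 0.07 ± 0.25 (SD), with 3 of 8 stages higher in the superovulated array, and the second Rn7sk row gave 0.03. The highest and lowest stage means differed by 0.77 log2, a figure that scaling moved (0.51 with arrays centred on expressed rows, 1.57 with cyclic loess). On every array Rn7sk lay 0.35 to 1.04 log2 below the brightest row, and how far a ceiling of the signal limits its differences was not tested. Vaultrc5 lay below the level of silent genes on 16 of 16 arrays (3.05 to 4.22 log2), so no course or difference is read from it.

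**Figure D2:**
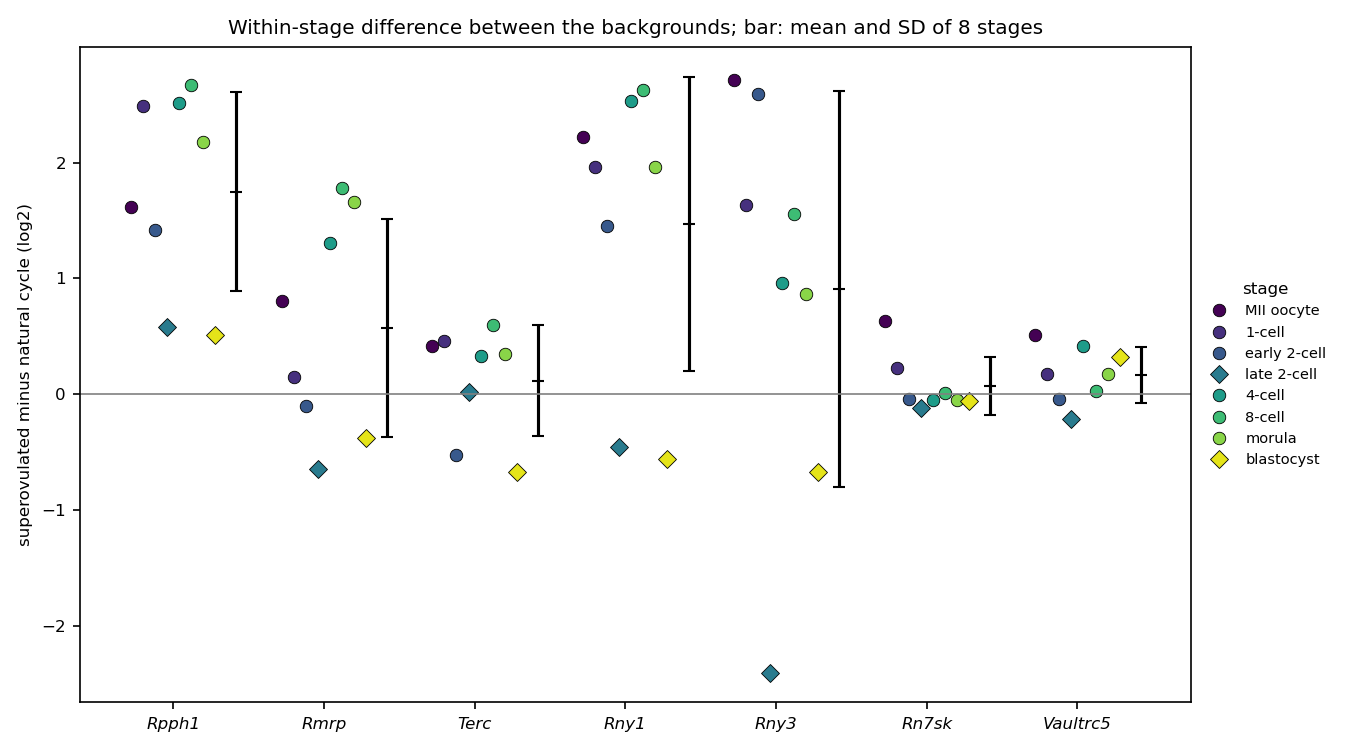
Superovulated minus natural-cycle log2 signal (y axis) for each RNA (x axis), 1 point for each stage, with diamonds for the late 2-cell and blastocyst stages and a bar for the mean and SD of the 8 differences. The diamonds are the 2 lowest points for Rpph1, Rmrp, Rny1 and Rny3, down to -2.40 for Rny3, whereas the Rn7sk points run only from -0.12 to 0.63.

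The members did not move as 1 block. Leaving out Vaultrc5, the superovulated array was higher for 6 of 6 RNAs at the MII, 1-cell and 8-cell stages, for 5 at the 4-cell and morula stages, for 3 at the early 2-cell stage, for 2 at the late 2-cell stage and for 1 in blastocysts. At the 1-cell stage both Rmrp arrays were below the level of silent genes. Rpph1, Rmrp, Rny1 and Rny3 had a smaller or opposite difference at the late 2-cell and blastocyst stages than at the other 6. Rpph1, Rny1 and Rny3 were above 0 at all of those 6, as 6.60% of tested rows were, and 1.63% of tested rows also had both remaining differences below them. Rmrp was at -0.10 at the early 2-cell stage. Among the other small structural RNAs reported at the end, Rn4.5s, Rn7s1, Rnu3a, Rnu3b1, Rnu1a1, Rnu1b1, Rnu1b2 and Rnu1b6 showed a like order. Each was higher in the superovulated array at those 6 stages and lower at the late 2-cell and blastocyst stages. The order was therefore not particular to the members. Bc1 and Snord118 were also higher at those 6 stages, with smaller or opposite differences at the late 2-cell and blastocyst stages. They were not lower at both, since Bc1 read 14.31 and 14.18 at late 2-cell and Snord118 5.21 and 5.17 in blastocysts (superovulated first). The rest of that list, apart from Rn7s2 (identical to Rn7s1), showed neither form of the order. The median of the mean differences of the 6 RNAs was 0.74, against 0.03 over all tested rows, and nothing is read from these figures, which rest on the values that chose the RNAs. Across the 16 arrays Rpph1 correlated with Rny1 at r = 0.96, with Rmrp at 0.83, with Rny3 at 0.79 and with Rn7sk at 0.43. The 8 within-stage differences of Rpph1 correlated with those of Rny1 at 0.93, of Rmrp at 0.81, of Terc at 0.78 and of Rny3 at 0.60. These coefficients are descriptions, since the rows share arrays, stages and scaling.

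Like courses were searched in a set of 14075 rows, which is not the full set of expressed rows. Rows outside it were not ranked, so each nearest course given here is the nearest within that set only. Within it the course most like that of Rpph1 over the 16 arrays was that of Snord42a, a small nucleolar RNA (Pearson r = 0.963). Both rows of Rny1 followed (0.956 and 0.955). H2ax (0.930), the histone variant phosphorylated at DNA breaks, and H2ac10 (0.906), a histone H2A gene, came next. Snord42a had a mean difference of 1.80 ± 1.28 (SD) and H2ax of 1.47 ± 1.35, each higher in the superovulated array at 7 of 8 stages. For Rmrp the nearest rows were Tead1 (0.980), a transcription factor of the Hippo pathway, and Rassf7 (0.976). For Terc they were the small nucleolar RNAs Snord104 (0.973) and Snord55 (0.967). Rny1 was nearest to Snord42a (0.969) and Rpph1 (0.956), and Rny3 to Bad (0.972), a pro-apoptotic BCL2 relative, and Snord69 (0.967). Bad lay near the level of silent genes, with means of 4.95 on superovulated and 4.81 on natural-cycle arrays. Rn7sk had weaker matches in Ndufa2 (0.894), a subunit of respiratory complex I, and AY074887 (0.892).

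Tests were run only on genes that are not members, and the first were the neighbours, set by their position. The gene lists tested further below were chosen with earlier results of these data known. Parp2 read 9.58 and 10.14 in MII oocytes, 9.69 and 9.37 at the 1-cell stage, 8.83 and 8.95 at early 2-cell, and 10.05 and 9.94 at late 2-cell. It then read 10.17 and 9.98, 11.00 and 10.62, 10.71 and 10.76, and 10.33 and 9.84 from 4-cell to blastocyst. The groups overlapped, and the difference was 0.10 ± 0.14 (SE, adjusted p = 0.779), with 5 of 8 stages higher in the superovulated array. On the other side of Rpph1, Ccnb1ip1 differed by -0.28 (adjusted p = 0.591). Ccdc107, beside Rmrp, was higher in the superovulated array at 8 of 8 stages, but by 0.36 ± 0.10, and was not called (adjusted p = 0.131). Sit1, on its other side, was not above the level of silent genes. Of the remaining neighbours Zmat2, beside Vaultrc5, had the widest difference, -0.98 (adjusted p = 0.0738), and none of the neighbours was called. Of all tested rows 0.339% were called for superovulation, 0.206% as higher and 0.134% as lower.

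**Figure D3:**
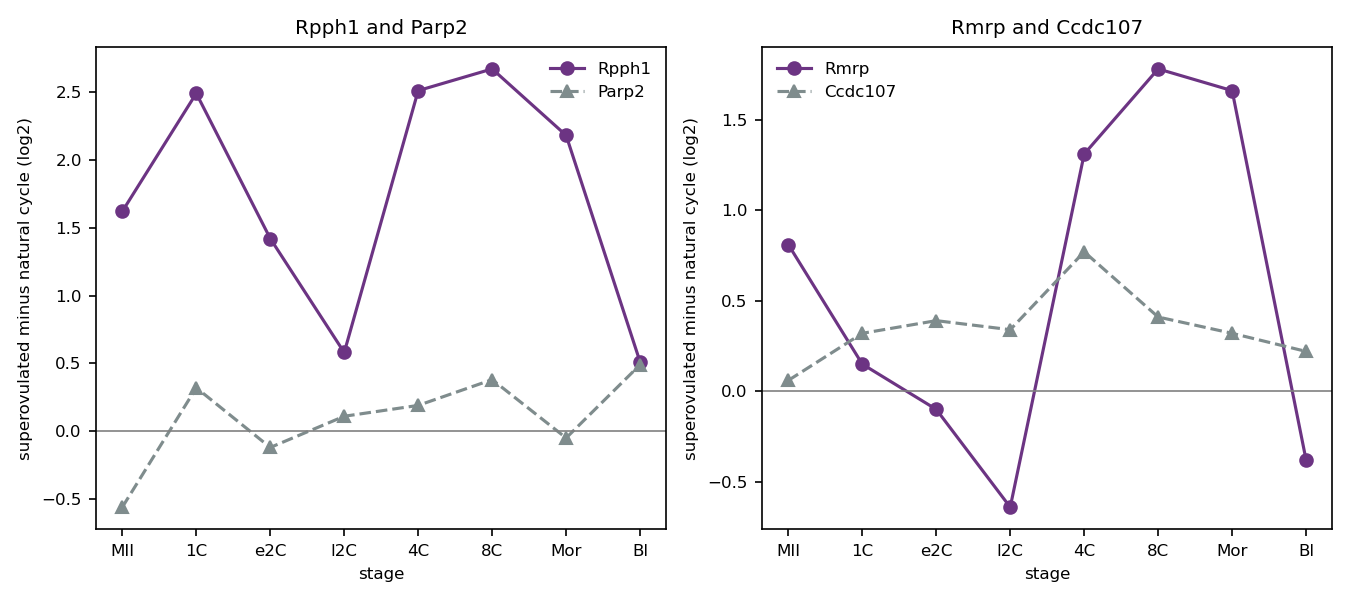
Superovulated minus natural-cycle log2 signal (y axis) at each stage (x axis) for Rpph1 with its neighbour Parp2 (left) and Rmrp with its neighbour Ccdc107 (right), each point being the difference of 1 pair of arrays. Rpph1 runs from 0.51 to 2.67 while Parp2 stays between -0.55 and 0.49.

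The proteins that assemble with these RNAs, mature them or transcribe them were then examined in 9 lists of 68 tested genes. For superovulation 1 of the 68 was called. Puf60, a splicing factor also known as a Ro RNA binding protein in human and frog, read 13.41 and 12.67 in MII oocytes, 12.21 and 10.27 at the 1-cell stage, 9.70 and 8.30 at early 2-cell, and 10.77 and 10.38 at late 2-cell. It read 12.30 and 10.71, 12.52 and 11.28, 12.34 and 11.60, and 12.15 and 11.37 from 4-cell to blastocyst. The superovulated array was higher at 8 of 8 stages, by 1.10 ± 0.18 (SE, adjusted p = 0.0488). The call stood at the threshold and was lost with all rows of the table tested (adjusted p = 0.102), in a plain analysis of variance (0.117) and without both MII arrays (0.0673). It was also lost without any 1 array of the stages up to the morula (0.0567 to 0.147), with differences between 0.98 and 1.21. Ssb, the La protein, differed by -0.75 ± 0.23 (adjusted p = 0.151), and Ro60 by -0.02 (adjusted p = 0.962).

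The 11 protein genes of RNase P and RNase MRP had 0 called for superovulation, 3 of them at an unadjusted p below 0.05 (16.2% of all tested rows were), and a median difference of 0.13. Their values ran from -0.23 (Rpp14) to 0.52 (Rpp25, adjusted p = 0.0834). The 12 subunits of RNA polymerase III had 0 called and a median of 0.01, and its 17 initiation factors and Maf1 had 0 called and a median of 0.08. Snapc2, of the complex that binds the promoter element of Rpph1, Rmrp and Rn7sk type genes, differed by 0.52 (adjusted p = 0.168), and Snapc5 of the same complex by -0.51 (adjusted p = 0.156). Parn, a deadenylase that trims the ends of Terc and Y RNAs in human cells, was lower in the superovulated array at 8 of 8 stages, by -0.74 ± 0.17, and missed the threshold (adjusted p = 0.0770). No gene of any list was called for a change of the superovulation difference between the MII to early 2-cell and the late 2-cell to blastocyst phases. In that fit 0.0% of all tested rows were called by limma (1905 rows at an unadjusted p below 0.05).

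**Figure D4:**
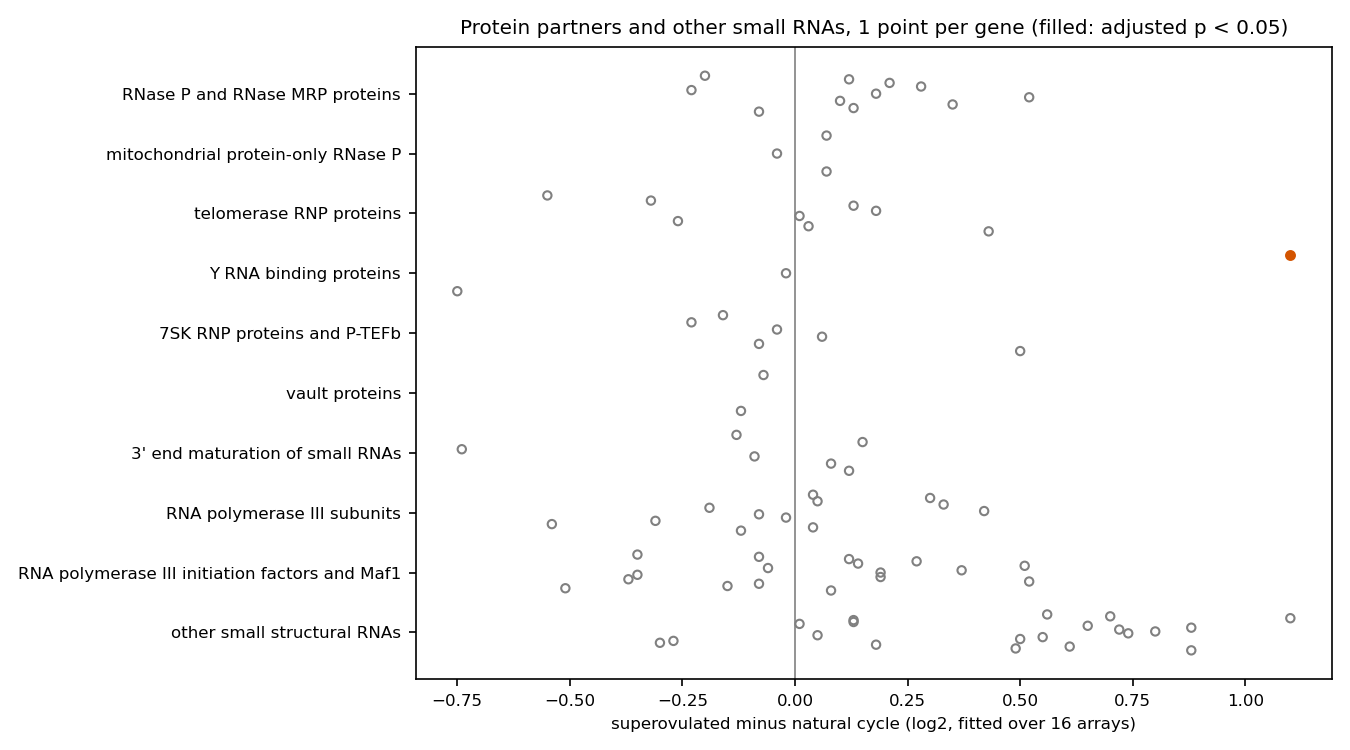
Fitted superovulated minus natural-cycle difference (x axis, log2, 16 arrays) of each gene in the protein lists and of other small structural RNAs (y axis). Filled points are called at an adjusted p below 0.05, and the only filled point is Puf60 at 1.10.

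More of the partners were called between stages than for superovulation. Between MII oocyte and early 2-cell 15 of the 68 rose and 12 fell, against 13.0% and 11.4% of all tested rows (24.4% in either direction). Between early and late 2-cell 31 rose and 3 fell, against 10.5% and 8.56% (19.0%). Between late 2-cell and blastocyst 13 rose and 27 fell, against 19.1% and 17.8% (36.9%). The tested rows include silent ones and the partners were mostly expressed, so these shares are not those of expressed rows. With expressed rows only, 7722, 6247 and 11099 rows were called over these intervals, in order. The number of expressed rows behind these counts is not given here, so no share is formed and no excess of the partners is read. The 14075 rows searched for like courses are a different set. The part of expression in the gap between partners and all rows was not tested. Rises and falls are relative to the other rows of an array, since column medians were within 4.39 to 4.69 on all arrays and the RNA content of an embryo is not measured.

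Among RNase P and MRP proteins 3 of 11 rose and 4 fell from MII oocyte to early 2-cell. Rpp38, a kink-turn binding subunit, fell from 12.13 and 12.47 to 7.21 and 7.04 (-5.17 ± 0.45, adjusted p = 7.98e-06). Pop4 (-2.47), Pop1 (-2.22) and Rpp30 (-2.03) also fell (adjusted p = 0.000203, 0.000544 and 0.000354). Rpp14, Rpp25 and Rpp40 rose by 1.95, 1.91 and 1.16 (adjusted p = 0.00874, 0.000139 and 0.0200). At the next step, from early to late 2-cell, 6 rose and 0 fell, led by Rpp40 (2.39, adjusted p = 0.000486), Rpp14 (2.04), Pop5 (1.84) and Rpp30 (1.81). From late 2-cell to blastocyst, where Rpph1 and Rmrp reached their highest levels, 6 rose and 1 fell. Pop4 rose by 2.57 (adjusted p = 7.83e-05), Rpp21 by 1.80, Rpp30 by 1.75 and Pop7 by 0.81, and Rpp25 fell by 0.81 (adjusted p = 0.0212). Of the 3 genes of the mitochondrial RNase P, which has no RNA, Hsd17b10 fell (-1.47) to early 2-cell and rose by 2.49 into the blastocyst (adjusted p = 2.75e-05), and Prorp, the nuclease itself, fell over that last interval (-1.87, adjusted p = 0.000398).

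Telomerase components separated at the early 2-cell stage. Tert, the reverse transcriptase, went from 8.21 and 8.42 in MII oocytes to 5.81 and 5.06 (-2.88 ± 0.30, adjusted p = 3.03e-05). Wrap53, which brings telomerase to Cajal bodies, went from 5.28 and 4.61 to 8.03 and 8.18 (3.16 ± 0.30, adjusted p = 1.73e-05), and Nhp2 and Naf1, of the box H/ACA particle that Terc joins, rose by 2.10 and 1.42. These are the same stages between which the Terc signal rose. From early to late 2-cell 5 of the 8 genes rose, among them Nhp2 (2.25), Wrap53 (1.31), Gar1 (1.24) and Dkc1 (1.13), and 0 fell. From late 2-cell to blastocyst 0 rose and 3 fell, namely Naf1 (-1.40), Dkc1 (-1.11) and Wrap53 (-0.97, adjusted p = 0.0254).

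The inhibitors that work with Rn7sk moved in opposite directions while Rn7sk itself changed little. Hexim1 rose by 3.89 ± 0.29 from MII oocyte to early 2-cell (adjusted p = 2.32e-06) and Hexim2 fell by 3.24 ± 0.24 (adjusted p = 2.5e-06). Hexim2 (-1.5) fell again to late 2-cell, as did Mepce, the capping enzyme of this RNA (-1.04), while Ccnt1, a cyclin of P-TEFb, rose by 1.04. From late 2-cell to blastocyst 4 of 6 genes fell, namely Ccnt1 (-1.34), Hexim1 (-1.24), Mepce (-1.03) and Ccnt2 (-0.80), and 0 rose. Both vault proteins tested, Mvp and Parp4, fell from MII oocyte to early 2-cell (-1.46 and -2.48) and rose from late 2-cell to blastocyst (1.45 and 1.29). Of the Y RNA binding proteins Puf60 fell (-4.04) and then rose by 1.58 and 1.19, and Ro60 and Ssb were not called at any of these steps.

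Of the 29 RNA polymerase III genes, 17 rose at the step to the late 2-cell stage and 12 were not called. Of 12 subunits 8 rose and 0 fell there, with Polr3e (2.78, adjusted p = 0.000133), Polr3b (2.34), Polr3g (2.20) and Polr3a (2.11), the largest subunit, at the head. Of 17 factors 9 rose and 0 fell, with Snapc5 (2.78), Snapc3 (1.74), Gtf3c5 (1.64) and Bdp1 (1.58). The preceding step was mixed. Polr1c, shared with RNA polymerase I, rose by 3.06, Gtf3c4 by 3.11, Snapc3 by 2.74 and Snapc2 by 2.66, while Polr3a (-3.08) and Brf2, the factor for Rpph1 and Rn7sk type promoters (-3.91, adjusted p = 2.07e-05), fell. From late 2-cell to blastocyst, over which Rpph1, Rmrp, Rny1 and Rny3 rose on both backgrounds, 16 of these 29 genes fell and 2 rose. Snapc1 (-3.76, adjusted p = 9.39e-06), Snapc3 (-3.13), Polr3k (-2.66), Brf2 (-2.53), Polr3a (-2.42) and Snapc2 (-2.28) fell most. The 2 that rose were Maf1, the repressor of RNA polymerase III (2.34, adjusted p = 3.55e-05), and Polr3c (1.28).

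The nucleases and other enzymes that finish the ends of small RNAs had 0 of 6 called from MII oocyte to early 2-cell. Exosc10 of the nuclear exosome rose by 1.26 to late 2-cell and fell into the blastocyst (-1.53). Dis3l2 fell to late 2-cell (-1.47), Tent4b, which adds short tails, fell into the blastocyst (-2.15), and Toe1, a deadenylase of small nuclear RNAs, rose by 1.83 (adjusted p = 0.000129).

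**Figure D5:**
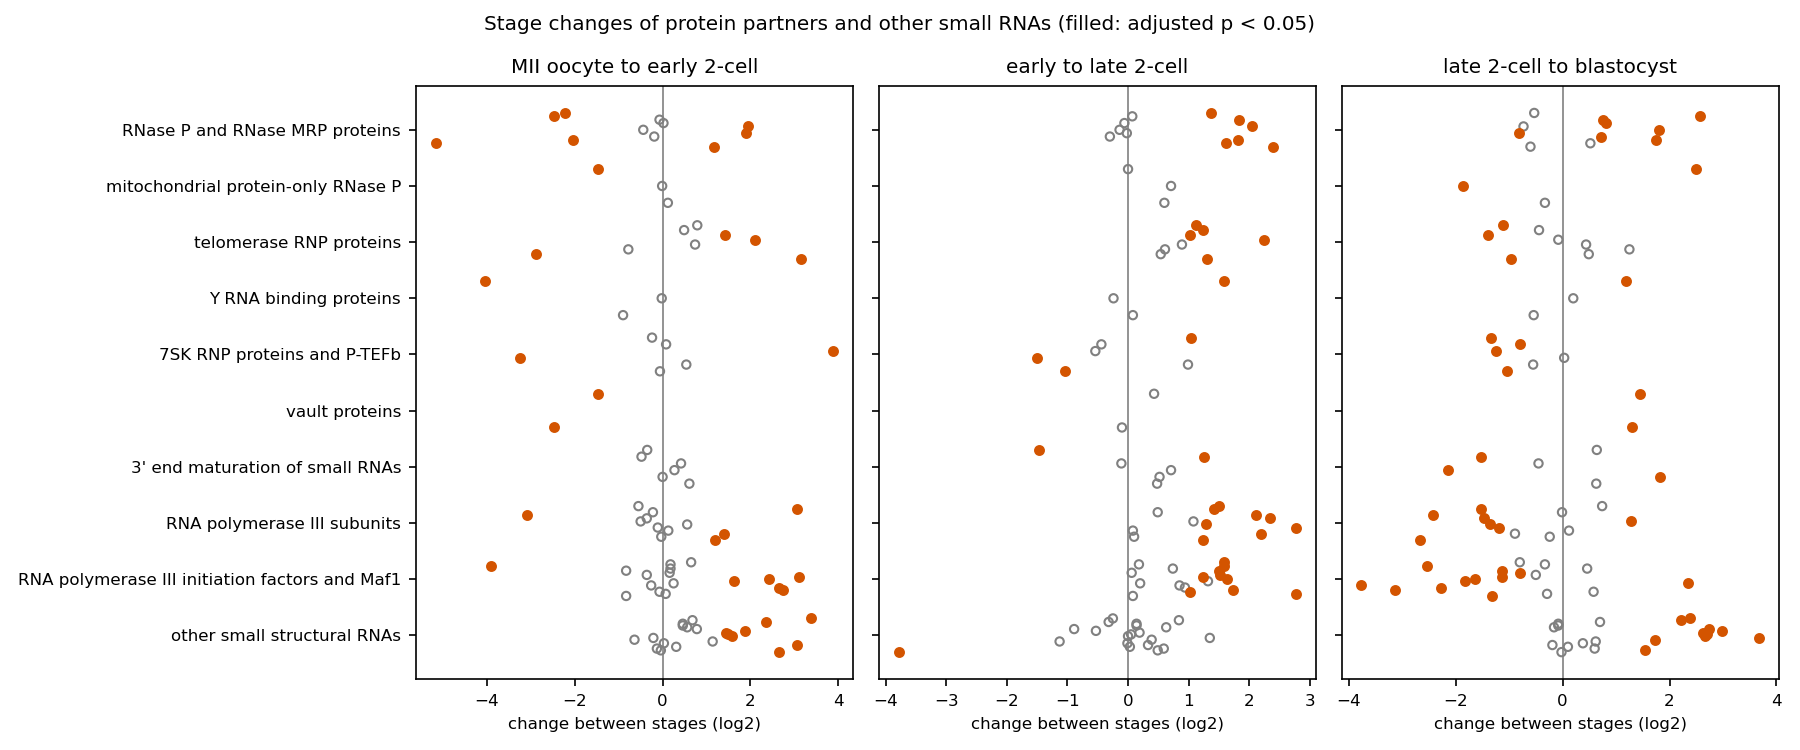
Log2 change (x axis) of each gene of the lists (y axis) over 3 stage intervals, fitted over 16 arrays, with filled points called at an adjusted p below 0.05. RNA polymerase III subunits and factors lie mostly right of 0 in the middle panel (17 of 29 rose) and mostly left of 0 in the right panel (16 of 29 fell).

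Markers of cumulus cells, which the study's methods say were removed in hyaluronidase, were higher in superovulated MII oocytes. The mean log2 signal of 19 cumulus and granulosa markers was 6.13 there against 5.23 in natural-cycle MII oocytes, with 12 of 19 above the level of silent genes on each array. In morulae it was 5.09 against 4.35, with Hsd3b1 at 7.98 and 4.71, Cyp11a1 at 7.29 and 3.92, and Inha at 6.47 and 4.31. The mean was also higher in superovulated embryos at the 1-cell (4.61 against 4.38), early 2-cell (4.77 against 4.49) and late 2-cell (4.75 against 4.53) stages. Inha stood at 7.17 and 4.32 at early 2-cell and at 6.25 and 4.26 at late 2-cell. Tnfaip6 went the other way at early 2-cell, with 5.72 and 6.60. At the 4-cell stage the mean was lower in superovulated embryos, 4.65 against 4.74. Hsd3b1 stood there at 5.32 and 6.56 and Cyp11a1 at 4.12 and 5.84, while Inha stood at 4.52 and 4.33. Over all stages after MII the mean was 4.30 to 5.09 on superovulated and 4.21 to 4.74 on natural-cycle arrays, and the log2 of the summed signal ran from 8.84 to 12.84 and from 8.67 to 11.71 over all stages. At the 4-cell stage that sum was 12.34 and 11.71, and Amhr2 alone read 12.24 and 11.49. Amhr2 was the only marker of this list called as rising to early 2-cell (3.15) and again to late 2-cell (2.61). The sum in cleaving embryos is therefore largely that of Amhr2. Amh, Ptx3, Fshr, Star, Foxl2, Sult1e1 and Pgr were below the level of silent genes on 16 of 16 arrays. None of the 19 was called for superovulation (8 at an unadjusted p below 0.05, against 16.2% of all tested rows). The part of these cells in the values of the members was not tested at any stage. Without both MII arrays the mean differences were 1.77 for Rpph1, 1.36 for Rny1 and 0.65 for Rny3. Without both morula arrays they were 1.68, 1.40 and 0.91. The mean of 6 oviduct, blood and immune markers was 4.68 to 5.00 on all arrays. Single markers varied more. Ovgp1, an oviduct marker, read 7.32 in superovulated and 5.69 in natural-cycle late 2-cell embryos, and 5.60 and 6.38 at the 4-cell stage. At each stage the 2 arrays correlated at r = 0.983 to 0.992 over all tested rows, and 2.04% (MII oocyte) to 7.33% (morula) of rows differed at least 2-fold.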

How the data were processed

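Signals of 16 mouse transcriptome arrays were analysed as the log2 values deposited by the authors, made with Affymetrix Expression Console per the labels. SST-RMA is stated for the study's other arrays, and no source used here names the genome build. Nothing was rescaled. Of 72688 rows, 39688 had no symbol, 2176 several and 186 were controls. The 30638 rows with exactly 1 symbol (330 updated through RefSeq, GRCm38.p6, used for names, neighbours and promoters) were modelled by additive terms for stage and background in limma 3.58.1 under R 4.3.3 (7 residual degrees of freedom, mean-variance trend). A second fit added background by phase. P-values were adjusted over all rows (Benjamini-Hochberg) and called below 0.05. The median SE was 0.113 log2 for superovulation and 0.227 for a stage change. With 1 array per stage and background and pooled lysates, the spread behind the p-values is departure from additivity, not variation between replicate pools. That departure may be technical, and the number of arrays limits the precision. The members and gene lists were chosen with earlier results of these data known. The genes named were the members, their neighbours and nearest courses (not for Vaultrc5), and called list genes, up to 4 in each direction by size; Rpp14, Rpp25, Pop7, Ssb, Ro60, Snapc2, Snapc5 and Parn were added for superovulation, or beyond 4, after their values were seen. Alternatives covered scaling, rows, filter, test, weights and each array left out. Listed genes without a tested row, such as Cdk9, Tep1 and Zfp143, are not reported here.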

Additional observations from a re-analysis of the deposited data

How the results depend on the processing

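The mean difference of Rn7sk turned to -0.06 under quantile scaling. Leaving out 1 stage at a time gave 1.62 to 1.92 for Rpph1, 1.30 to 1.76 for Rny1, 0.65 to 1.38 for Rny3, 0.40 to 0.75 for Rmrp, 0.06 to 0.24 for Terc, -0.01 to 0.10 for Rn7sk and 0.13 to 0.23 for Vaultrc5. Without the late 2-cell and blastocyst arrays, a subset chosen after the data were seen, they were 2.15, 2.13, 1.72, 0.93, 0.27, 0.12 and 0.21. The stage course of Rn7sk was 0.51 with arrays centred on expressed rows and 1.57 with cyclic loess. The 104 superovulation calls became 429 with centring, 199 with quantile scaling, 331 with expressed rows only, 363 with array weights, and 0 with all rows of the table, with plain analysis of variance or without both MII arrays. Among the partners the 1 call became 2 with centring or expressed rows only and 0 in those last 3 settings. Leaving out 1 array gave 0 to 542 calls over all rows, with 542 only without a blastocyst array, and 0 to 5 among partners. The phase comparison gave 0 to 1 calls. Over the 3 stage intervals, in order, leaving out 1 array gave 4573 to 7731, 2882 to 6014 and 9167 to 11601 calls over all rows, and 22 to 28, 18 to 37 and 28 to 42 among partners. The last interval had 17452 calls with all rows of the table. The causes were not tested. Array counts limit these calls, since an array left out removes its stage from the superovulation contrast. Values above the level of silent genes numbered 138 of 160 for the members, and 141 with antigenomic control rows. The labels give no replicate numbers, and the stage term pairs the arrays within each stage.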

Other observations

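Of 20 other small structural RNAs with a tested row, 8 rose from MII oocyte to early 2-cell and 0 fell, led by Bc1 (3.37, adjusted p = 6.03e-06), a brain cytoplasmic RNA, Rnu6 (3.06, adjusted p = 8.97e-05), the spliceosomal U6 RNA, and Snord118 (2.66, adjusted p = 0.00105), the U8 RNA of ribosomal RNA maturation. From early to late 2-cell 0 rose and 1 fell, Snord118 by 3.79 (adjusted p = 0.000259), from 9.68 and 8.33 to 5.03 and 5.39 (superovulated first). From late 2-cell to blastocyst 10 rose and 0 fell, led by Rnu2-10 (3.68), Rnu1a1 (2.99), Rnu12 (2.74) and Rnu1b2 (2.70). The U1 rows are of near-identical copies and are uncertain as single genes, and the Rn7s1 and Rn7s2 rows held identical values.

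None of the 20 was called for superovulation by limma (13 at an unadjusted p below 0.05, against 16.2% of all tested rows, with 4 near-identical U1 rows and 2 identical rows among the 20), with a median difference of 0.55 against 0.03 over all tested rows. Rn5s, the ribosomal 5S RNA, differed by 1.10 ± 0.37 (SE, adjusted p = 0.183), Snord118 by 0.88 ± 0.23 (adjusted p = 0.0989) and Bc1 by 0.56 ± 0.14 (adjusted p = 0.0949). The RNase P RNA-like genes Rprl1, Rprl2 and Rprl3, which are related in sequence to Rpph1 and uncertain as single genes for that reason, differed by 0.18, 0.61 and 0.49, none of them called. Rprl2 read from 5.29 to 6.82 on superovulated and from 4.86 to 6.61 on natural-cycle arrays.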
